A study of Mus musculus with 6 samples.

Results

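The arms of miR-126 and of miR-221 and miR-222 were followed in small extracellular vesicles (sEVs) released by cultured mouse islets. Every row of the deposited table named for miR-126a, miR-126b, miR-221 or miR-222 was taken, whatever its arm, which gave 6 of the 718 listed entries (479 of them with a miRBase name). These are mmu-miR-126a-3p, mmu-miR-126a-5p, mmu-miR-126b-3p, mmu-miR-221-3p, mmu-miR-221-5p and mmu-miR-222-3p, where mmu stands for mouse. Rows were picked by name alone and by no measured value, though earlier results of these data were known when the arms were chosen. Small RNA libraries came from sEVs of wild-type C57BL/6J islets (spelled C57/B6J in the labels). Of these libraries, 3 came from mice on a normal chow diet (NCD, called nid-sEVs) and 3 from mice on a high-fat diet (HFD, called aid-sEVs). All islets were kept in serum-free medium for 48 hours before the vesicles were pelleted by ultracentrifugation, and neither group carried a transgene or a drug. The labels give neither the age nor the sex of the mice nor the number pooled per library, so p-values measure the spread between these libraries only.

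miR-126 is made from within Egfl7, a gene of endothelial cells, and is the miRNA most used to mark the endothelium. It holds back inhibitors of vascular endothelial growth factor signalling and helps keep vessels intact, and islets are densely supplied with capillaries. Platelets and blood progenitors carry it too. miR-221 and miR-222 are processed from a shared transcript on the X chromosome and repress the growth factor receptor Kit and the cell cycle inhibitor Cdkn1b. In endothelial cells they restrain migration and tube formation, but smooth muscle and many other cells also make them, so they do not mark one cell type.

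The mature sequences are shown with the seed, bases 2 to 8, in capitals, because the seed sets which messages a miRNA can pair with and shows which arms form a family. They are RefSeq sequences on GRCm38.p6, written 5′ to 3′, and 5 of the 6 listed arms had one.
miR-126a-3p: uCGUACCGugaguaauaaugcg
miR-126b-3p: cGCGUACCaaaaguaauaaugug
miR-221-3p: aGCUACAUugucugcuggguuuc
miR-222-3p: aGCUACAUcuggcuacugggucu
miR-221-5p: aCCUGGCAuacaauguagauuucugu

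miR-221-3p and miR-222-3p began with the same 8 bases and so had 1 seed, while over their 23 positions only 11 carried the same base, so that a read of either can be told from the other. Among the 424 listed entries with a RefSeq mature sequence, no entry other than this pair held that seed, and none shared the seed of miR-126a-3p. The mature miR-126a-3p lies on the plus strand at chr2:26591402-26591423. Its hairpin (chr2:26591357-26591429) sits inside Egfl7. Of the 9 Egfl7 transcripts that span the hairpin in GENCODE M21, 1 has an exon over it and none has coding sequence there, so in the other 8 it is intronic. The Mir126b hairpin is on the opposite strand of the same place, with miR-126b-3p at chr2:26591363-26591385. The Mir221 and Mir222 hairpins are 504 bases apart on the minus strand of the X chromosome (miR-221-3p at chrX:19146307-19146329, miR-222-3p at chrX:19146901-19146923) and overlap no other annotated gene.

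Levels are given as RPM, the reads of an entry scaled to the same fixed total in every library. The nid-sEV libraries held 50534 to 129152 reads and the aid-sEV libraries 122266 to 519315, and 1 read was worth between 1.93 and 19.8 RPM. A level of 3 reads, taken as the least the depth can show, was 23.2 to 59.4 RPM in nid-sEVs and 5.78 to 24.5 RPM in aid-sEVs. Brackets after a level give its 95% Wilson interval. Intervals and floors cover counting error only. Entries with no miRBase name took 33.5% of the listed reads in nid-sEV replicate 1 and 6.61% to 9.46% elsewhere, so that library stands apart. The most abundant islet miRNA, miR-375-3p, ranked first among named entries in 5 libraries and 2 in nid-sEV replicate 1.

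No arm differed between nid-sEVs and aid-sEVs beyond the threshold of the test. An entry was called when limma on log2(RPM + 1) gave it a log2 fold change beyond 1 in either direction together with a Benjamini-Hochberg adjusted p below 0.05. By this rule 0 of the 6 arms were called, against 17.4% of all entries (15.6% higher and 1.81% lower in aid-sEVs). No arm had an unadjusted p under 0.05 by limma, where 200 of all 718 entries did. On whole reads recovered from RPM, DESeq2 and edgeR's exact test also called 0 arms, as did edgeR's quasi-likelihood test, whose filter on low counts left only the miR-126a arms. The groups overlapped for every arm, where 31.8% of all entries did not overlap. The mean RPM was lower in aid-sEVs for the 5 arms other than miR-126b-3p, with differences that lay within the spread between libraries.

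miR-126a-3p, the strand regarded as the main product of its hairpin, was the most abundant of the arms. The nid-sEV counts of mmu-miR-126a-3p were 252, 70 and 32 in replicates 1, 2 and 3, which are 1951 RPM (1725 to 2207), 1066 RPM (844 to 1346) and 633 RPM (449 to 894). In aid-sEVs it had 414, 154 and 60 reads, which are 797 RPM (724 to 878), 437 RPM (373 to 512) and 491 RPM (381 to 632). Replicates 1 and 2 of nid-sEVs lay above every aid-sEV library, and nid-sEV replicate 3 lay inside the aid-sEV range. The means were 1217 ± 672 RPM in nid-sEVs and 575 ± 194 RPM in aid-sEVs (SD, n = 3). The log2 fold change was -0.98 (SE 0.56, 95% interval -2.35 to 0.39), and limma's adjusted p was 0.28. The interval holds both 0 and falls of more than 2 on the log2 scale. Among named entries it ranked 49 to 67 in nid-sEVs and 82 to 105 in aid-sEVs.

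The other strand, mmu-miR-126a-5p, which is also active in endothelial cells, ranked the replicates alike within each group. Its levels in nid-sEV replicates 1, 2 and 3 were 1765 RPM (228 reads), 777 RPM (51 reads) and 356 RPM (18 reads). In aid-sEVs they were 528 RPM (274 reads), 241 RPM (85 reads) and 393 RPM (48 reads). The lowest nid-sEV library again fell between the aid-sEV libraries. The means of 966 ± 723 RPM and 387 ± 143 RPM gave a log2 fold change of -1.09 (SE 0.71, 95% interval -2.81 to 0.62, adjusted p = 0.33 by limma).

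The spread of miR-126a was largest within nid-sEVs. The highest nid-sEV library had 3.08 times the level of the lowest for the 3p arm and 4.96 times for the 5p arm, while in aid-sEVs these ratios were 1.82 and 2.19. Nid-sEV replicate 1 alone gave 71.2% of the nid-sEV reads of miR-126a-3p. It was also the deepest nid-sEV library, with 129152 reads against 65671 and 50534. Without that library the log2 fold changes were -0.56 and -0.51 for the 3p and 5p arms, and without nid-sEV replicate 3 they were -1.38 and -1.67 (adjusted p by limma 0.13 and 0.12). Both arms stayed lower in aid-sEVs in each of the 18 other settings tried. The median log2 fold change was 1.11 over all entries and -0.21 over the 219 that every library detected. Both arms belong to the latter, and relative to its median their log2 fold changes were -0.77 (3p) and -0.89 (5p).

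The remaining miR-126 product was rare. miR-126b-3p, from the strand opposite miR-126a, had 1 read in each of aid-sEV replicates 1 and 2 and 0 reads in the other 4 libraries. It was under the floor everywhere, and no fold is given for it. In nid-sEV replicate 3, 0 reads allow a level of up to 59.4 RPM by the floor of 3 reads and up to 76.0 RPM by the Wilson interval.

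**Figure D1:**
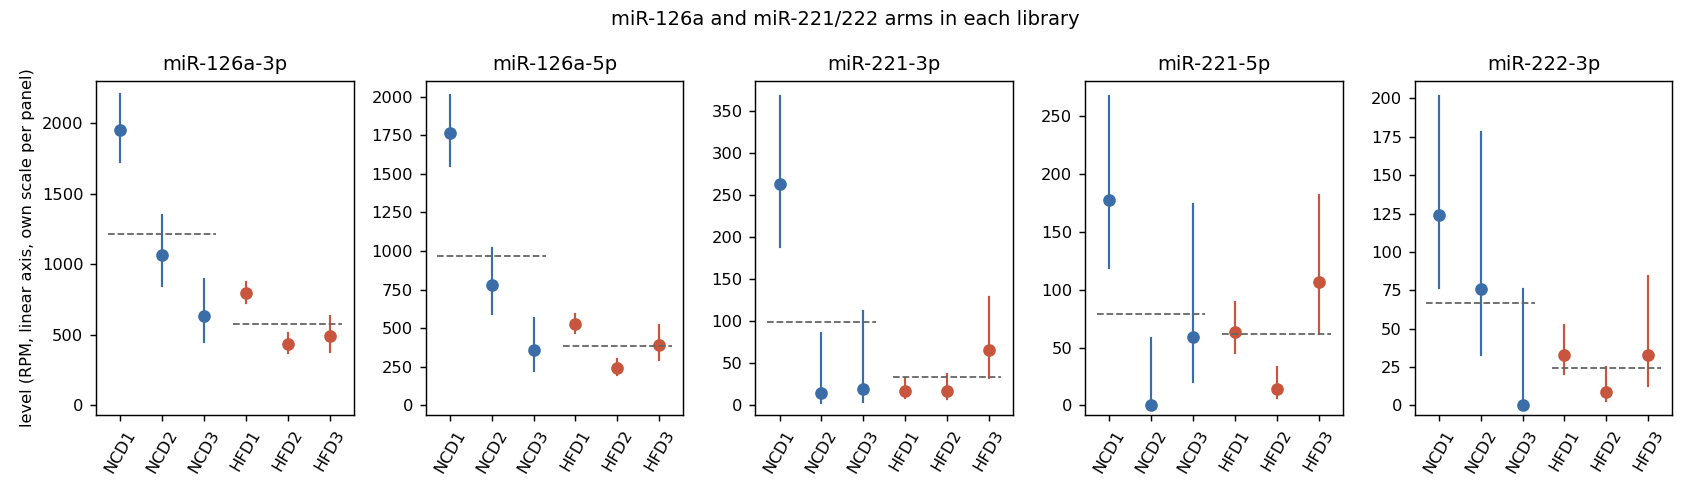
Level in RPM (linear axis, its own scale in each panel) of miR-126a-3p, miR-126a-5p, miR-221-3p, miR-221-5p and miR-222-3p in the 3 nid-sEV libraries (NCD, blue) and the 3 aid-sEV libraries (HFD, red). Points are libraries, vertical bars are 95% Wilson intervals and dashed lines are group means. Nid-sEV replicate 1 (NCD1) is the highest point in every panel, at 1951 RPM for miR-126a-3p and 263 RPM for miR-221-3p.

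mmu-miR-221-3p, the strand usually taken as the active one, was close to the floor in most libraries. It had 34 reads in nid-sEV replicate 1 (263 RPM, 188 to 368) but 1 read in each of replicates 2 and 3 (15.2 and 19.8 RPM). In aid-sEVs it had 9, 6 and 8 reads, which are 17.3, 17.0 and 65.4 RPM. A single nid-sEV library, the deepest of that group, was therefore high, with 94.4% of the nid-sEV reads. The remaining 5 libraries lay between 15.2 and 65.4 RPM. The means were 99.4 ± 142 RPM and 33.3 ± 27.9 RPM (SD, n = 3), with a log2 fold change of -0.67 (SE 1.31) and an adjusted p of 0.78 by limma. Without nid-sEV replicate 1 the direction turned, to a log2 fold change of 0.61.

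mmu-miR-222-3p, which has the seed of miR-221-3p, was counted 16, 5 and 0 times in nid-sEV replicates 1, 2 and 3, which are 124, 76.1 and 0 RPM. In aid-sEVs it had 17, 3 and 4 reads, which are 32.7, 8.52 and 32.7 RPM. The aid-sEV libraries lay between the nid-sEV library with 0 reads and the other two. The ratio of the mean RPM was 0.37, while limma gave a log2 fold change of 0.056 (SE 1.97) at an adjusted p of 0.99. The 2 scales differ in direction for this arm because the library at 0 weighs most on a log scale. Without nid-sEV replicate 3 the log2 fold change was -2.15 (adjusted p = 0.17 by limma), and without aid-sEV replicate 1 or 3 it was -0.25.

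miR-221-5p, the strand opposite miR-221-3p in the same hairpin, had 23, 0 and 3 reads in nid-sEVs (178, 0 and 59.4 RPM) and 33, 5 and 13 reads in aid-sEVs (63.5, 14.2 and 106 RPM). The nid-sEV libraries held both the highest and the lowest of the 6 levels. The means were 79.2 ± 90.7 RPM in nid-sEVs and 61.4 ± 46.1 RPM in aid-sEVs (SD, n = 3). The mean RPM was thus lower in aid-sEVs while the log2 fold change was above 0, so the scales differ in direction for this arm too. The log2 fold change of 1.09 (SE 2.05) had an adjusted p of 0.77 by limma, and it turned to -1.14 without nid-sEV replicate 2, the library at 0. The direction of each miR-221 and miR-222 arm thus turned when a single nid-sEV library was left out, replicate 1 for miR-221-3p, replicate 2 for miR-221-5p and replicate 3 for miR-222-3p. The 95% intervals of the log2 fold changes ran from -3.86 to 2.51 for miR-221-3p, from -3.88 to 6.07 for miR-221-5p and from -4.72 to 4.83 for miR-222-3p, so changes of many fold in either direction lie within them.

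The totals of nid-sEV replicate 1 and of aid-sEV replicate 3 were near equal (129152 and 122266 reads), so their reads can be set side by side with little difference in depth. miR-126a-3p had 252 and 60 reads there, a level 3.98 times higher in the nid-sEV library. The ratio was 4.50 for miR-126a-5p, 4.02 for miR-221-3p, 3.79 for miR-222-3p and 1.67 for miR-221-5p. All 5 arms were higher in that nid-sEV library. It held the highest level of each of them among the 6 libraries, so this direction was given beforehand. The 2 libraries also differed in composition, as entries with no miRBase name took 33.5% and 9.23% of their listed reads. The comparison is of a pair of libraries, not of the diets.

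Ratios between products of 1 hairpin or 1 transcript do not depend on the library total, and they were compared next. Of the 480 miR-126a reads of nid-sEV replicate 1, the 5p arm made up 47.5% (43.1% to 52.0%). In nid-sEV replicates 2 and 3 its share was 42.1% of 121 reads and 36.0% of 50 reads. In aid-sEVs it was 39.8% of 688 reads, 35.6% of 239 reads and 44.4% of 108 reads. Both strands of miR-126a were thus present at comparable read numbers in every library, with the 3p arm ahead in each. The mean 5p share was 41.9 ± 5.75% in nid-sEVs and 39.9 ± 4.44% in aid-sEVs (SD, n = 3, two-sided exact permutation test, p = 0.70, where 3 against 3 libraries cannot go below 0.10). Between the highest and the lowest library the level of the 3p arm differed by a ratio of 4.46 and that of the 5p arm by 7.32, while this share stayed between 35.6% and 47.5%.

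For miR-221 the arm with more reads differed between libraries. Over all libraries the 5p arm had 77 reads and the 3p arm 59, but without the deepest library, aid-sEV replicate 1, these were 44 and 50. The 5p share was 41.9% of 62 reads summed over nid-sEVs and 68.9% of 74 reads summed over aid-sEVs. Replicate 1 of each group gave most of these reads (57 in nid-sEVs and 42 in aid-sEVs), so the sums mainly compare that pair of libraries. Aid-sEV replicate 1 had 33 reads of the 5p arm among 42, a share of 78.6% (64.1% to 88.3%). In nid-sEV replicate 1 the share was 40.4% of 57 reads (28.6% to 53.3%), and these intervals did not overlap. The shares were 45.5% of 11 reads and 61.9% of 21 reads in aid-sEV replicates 2 and 3. Nid-sEV replicates 2 and 3 had only 1 and 4 reads of both arms together and give no usable share. No test of this share was planned and none was run.

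**Figure D2:**
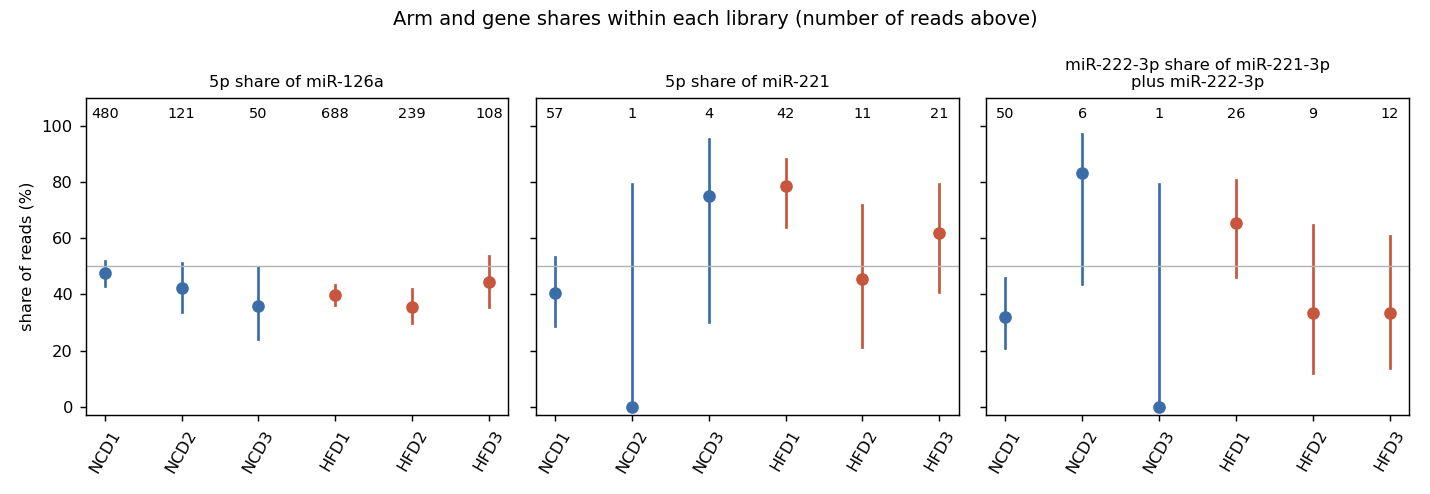
Share of reads (%) in each library for the 5p arm within miR-126a (left), the 5p arm within miR-221 (middle) and miR-222-3p within miR-221-3p plus miR-222-3p (right), with nid-sEVs (NCD) in blue and aid-sEVs (HFD) in red. Bars are 95% Wilson intervals and the number above each point is the number of reads behind it. The miR-126a shares stay between 35.6% and 47.5%, while the miR-221 and miR-222 shares rest on as few as 1 read.

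Within the seed pair, miR-222-3p took 32.0% of 50 reads in nid-sEV replicate 1, 83.3% of 6 reads in replicate 2 and 0 of 1 read in replicate 3. In aid-sEVs it took 65.4% of 26 reads, 33.3% of 9 reads and 33.3% of 12 reads. The means of 38.4 ± 42.0% and 44.0 ± 18.5% did not differ beyond their spread (two-sided exact permutation test, p = 0.80). Neither member was ahead throughout. The log2 ratio of miR-126a-3p to the sum of miR-221-3p and miR-222-3p was 2.33, 3.54 and 5.0 in nid-sEV replicates 1, 2 and 3, and 3.99, 4.10 and 2.32 in aid-sEV replicates 1, 2 and 3. Its means of 3.63 ± 1.34 and 3.47 ± 0.996 (SD, n = 3) did not separate the groups (two-sided exact permutation test, p = 0.90). In each of the 6 libraries miR-126a-3p had more reads than miR-221-3p and miR-222-3p together.

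The entries whose log2(RPM + 1) ran most like an arm over the 6 libraries were sought among the named entries detected in all of them at a mean of at least 100 RPM. These correlations describe 6 libraries that share depth and composition, and carry no test. For miR-126a-3p the closest of 155 entries was miR-126a-5p (Pearson's r = 0.98), followed by miR-144-3p (r = 0.98), a miRNA of red blood cells, and miR-199a-5p (r = 0.96), a mesenchymal miRNA. miR-144-3p lay under the floor of 3 reads in nid-sEV replicate 3 (19.8 RPM) and aid-sEV replicate 3 (8.18 RPM), so its r rests partly on such values. The smooth muscle miRNA miR-143-3p came in place 7 (r = 0.91) and the endocrine miR-375-3p in place 127 (r = -0.65). For miR-222-3p they were miR-27a-3p, miR-30a-5p and miR-99a-5p (r = 0.98, 0.97 and 0.96), which like it were lowest in nid-sEV replicate 3. For miR-221-3p they were miR-16-5p, let-7j and miR-486b-5p (r = 0.94, 0.91 and 0.78), each highest in nid-sEV replicate 1. The arms did not share a neighbour among these, and miR-126a-3p came in place 14 for miR-221-3p and 42 for miR-222-3p.

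Markers of other cells that cultured islets can hold varied between the same libraries. The 7 listed mesenchymal miRNAs summed to 5521 to 25102 RPM in nid-sEVs and 4585 to 11981 RPM in aid-sEVs, and 6 of the 7 had a log2 fold change below 0, with 0 called by limma (17.4% of all entries). miR-126a-3p amounted to 7.77%, 5.95% and 11.5% of that sum in nid-sEV replicates 1, 2 and 3 and to 6.65%, 9.54% and 7.04% in aid-sEVs. The groups thus overlapped on this ratio too. Set against the 7 endocrine miRNAs, of which 3 were called higher (15.6% of all entries) and whose sums were 80742 to 367080 RPM in nid-sEVs and 223210 to 241094 RPM in aid-sEVs, miR-126a-3p ranged more widely, from 0.173% to 2.42% in nid-sEVs and from 0.181% to 0.347% in aid-sEVs.

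The 8 blood cell and platelet miRNAs summed to 4553 to 9330 RPM in nid-sEVs and 400.3 to 1544 RPM in aid-sEVs, and all 8 had a log2 fold change below 0. Of these, miR-486a-5p and miR-150-5p were called lower (1.81% of all entries). For 3 of the 8 the aid-sEV libraries all lay below the nid-sEV libraries (7.52% of all entries). The sum did not overlap between the groups, but most of it was miR-486a-5p. That miRNA had a mean of 4777 RPM within a mean sum of 6171 RPM in nid-sEVs, and 658 RPM within 801 RPM in aid-sEVs. miR-126a-3p was 13.7% to 23.4% of that sum in nid-sEVs and 51.6% to 109% in aid-sEVs. The myeloid and platelet miRNA miR-223-3p was at 31.0, 15.2 and 0 RPM in nid-sEVs and at 5.78, 0 and 0 RPM in aid-sEVs. Only its level in nid-sEV replicate 1 lay above the floor of 3 reads, so no difference is read from it. The 3 acinar miRNAs summed to 2533 to 8997 RPM and 698 to 3370 RPM, with 0 of 3 called (17.4% of all entries). The part of these cells in the miR-126a levels was not tested. The number of endothelial cells and the amount of miR-126a per cell cannot be told apart in bulk vesicles.

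**Figure D3:**
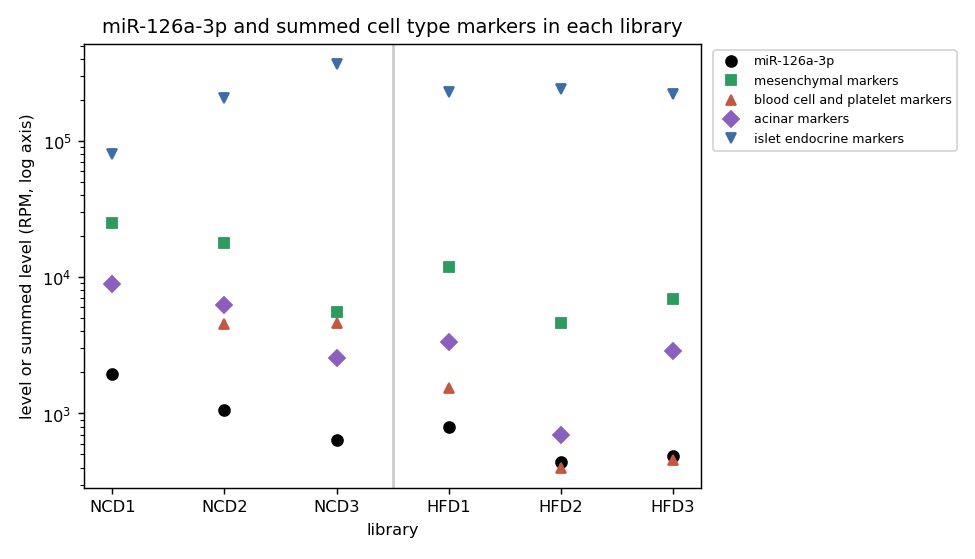
Level of miR-126a-3p and summed levels of 4 lists of cell type markers in each library, in RPM on a log axis, with the nid-sEV libraries (NCD) left and the aid-sEV libraries (HFD) right of the line. miR-126a-3p and the mesenchymal and acinar sums are highest in NCD1, where the endocrine sum is lowest at 80742 RPM. The blood cell and platelet sum, which is mostly miR-486a-5p, is the one that separates the groups.

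Other miRNAs with a known part in endothelial cells or in vessel growth were taken from a list of 24, of which 19 were listed and 11 were detected in every library. Most are made by many cells. By limma 0 of the 19 were called (17.4% of all entries were). An unadjusted p under 0.05 by limma was found for 5 of the 19 and for 200 of all 718 entries. Their median log2 fold change was -0.39, where it was 1.11 over all entries and -0.21 over the 219 detected in every library. For 4 of the 19 the aid-sEV libraries all lay below the nid-sEV libraries, and for 2 they all lay above. The background was 7.52% lower and 24.2% higher. With the count tests, edgeR's quasi-likelihood method called 3 of the 10 that passed its filter (28.2% of all entries that passed), DESeq2 called 4 of the 19 (16% of all entries) and edgeR's exact test called 1 (13.2% of all entries).

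The most abundant of them, miR-27b-3p, which is made by endothelial and many other cells, had 37010 ± 14866 RPM in nid-sEVs and 25964 ± 6156 RPM in aid-sEVs (log2 fold change -0.47, adjusted p = 0.42 by limma). miR-10a-5p and miR-10b-5p, from the Hox gene clusters, had log2 fold changes of -1.26 and -1.43 (adjusted p 0.12 and 0.15 by limma), and both were lower in every aid-sEV library. miR-146a-5p, which restrains inflammatory signalling in the endothelium and in leukocytes, went from 3383 ± 2050 to 1064 ± 383 RPM (log2 fold change -1.55, adjusted p = 0.15 by limma), also without overlap. miR-24-3p had 6911 ± 2026 and 6671 ± 2012 RPM (log2 fold change -0.045). Its partner in the miR-23/27/24 cluster, miR-23b-3p, was named after its values were seen. It was higher in every aid-sEV library, at 747 to 1080 RPM against 158 to 519 RPM (log2 fold change 1.74, adjusted p = 0.096 by limma). Of all entries, 24.2% were higher without overlap. miR-23a-3p and miR-27a-3p, also on the list, overlapped between the groups, at log2 fold changes of 0.098 and -0.24. Members of the list therefore lay on both sides of 0, as 12 with a log2 fold change below 0 and 7 above.

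**Figure D4:**
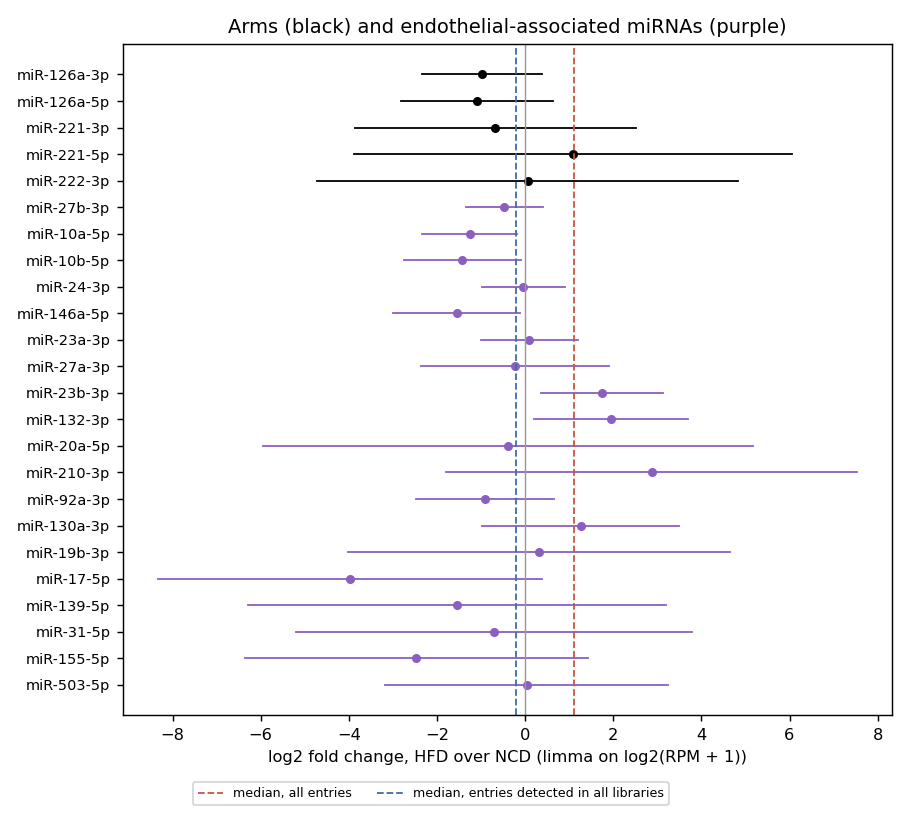
Log2 fold change of aid-sEVs over nid-sEVs (HFD over NCD, limma on log2(RPM + 1)) with 95% intervals. Shown are the 5 arms other than miR-126b-3p (black) and the 19 listed endothelial-associated miRNAs in order of mean RPM (purple). Each miR-221 and miR-222 arm was under the floor of 3 reads in at least 1 nid-sEV library. Dashed lines mark the medians of all entries (1.11) and of the entries detected in all libraries (-0.21). The intervals of all 5 arms include 0 and are widest for miR-221-5p and miR-222-3p.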

How the data were processed

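Small RNA libraries of islet sEVs (3 NCD, 3 HFD) were grouped by their titles. The authors deposited 1 table of RPM, reads scaled to a fixed total per library, and the submitters' processing notes name fastp 0.23.0, HISAT2 2.2.1 and GRCm38. The miRNA counter, its reference and its use of strand are not given in the sources used here. The deposited columns of the authors' own comparison (log2 fold change and abundance, p-value, false discovery rate) were left unused. Every listed entry is above 0 in at least 2 libraries. Division of RPM by the smallest value above 0 gave whole reads for 100% of values (tolerance 0.01), and totals from 50534 to 519315.

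limma 3.58.1 (R 4.3.3, eBayes with trend) was fitted to log2(RPM + 1) of all 718 entries, with Benjamini-Hochberg adjustment. The fit was also run on simulated counts with the same spread for every entry, which gives no error rate for these libraries. The added 1 can distort fold changes of low entries. Alternatives were pseudocounts of 0.1 and 10, a filter on a mean of 10 RPM, TMM factors, named entries only, centring, thinning, edgeR 4.0.16, DESeq2 1.42.0, a replicate block and each library left out. The edgeR exact test and the miR-221 arm reads without aid-sEV replicate 1 were added after the values were seen. Named miRNAs were all listed arms, the 5 most abundant and any called of the endothelial list, the 3 closest entries per arm and the defining cell type markers. The arms, lists and tests were chosen with earlier results of these data known.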

Additional observations from a re-analysis of the deposited data

How the results depend on the processing

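No arm of miR-126a, miR-221 or miR-222 was called in any of the 87 alternative fits (lowest adjusted p 0.12), apart from miR-126b-3p, which rests on 2 reads and passed limma's test without aid-sEV replicate 3. miR-126a-3p ranged from -1.25 to -0.48 and miR-126a-5p from -1.50 to -0.60 in log2 fold change over the 12 settings with all libraries, the smallest changes under TMM factors, which moved the median of entries detected in all libraries from -0.21 to 0.29. miR-221-5p turned to -0.18, -0.56 and -0.17 with the quasi-likelihood test without a filter, DESeq2 and the exact test. miR-222-3p turned to -1.01, -1.45 and -1.02 with the same tests, to -0.59 with a pseudocount of 10 and to -0.074 with named entries only. The cause was not tested. The quasi-likelihood filter removed all miR-221 and miR-222 arms. The log2 ratio of miR-126a-3p to miR-221-3p plus miR-222-3p differed by -0.16 between means but by 0.45 between medians.

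With each library left out in turn, log2 fold changes ran from -1.38 to -0.56 (miR-126a-3p), -1.67 to -0.51 (miR-126a-5p), -1.40 to 0.61 (miR-221-3p), -1.14 to 2.60 (miR-221-5p) and -2.15 to 1.33 (miR-222-3p). The difference in the 5p share of miR-126a ran from -4.88 to 0.87 percentage points, that in the miR-222-3p share from -13.6 to 28.0, and that in the log2 ratio from -0.80 to 0.53. The number of entries called was 125 and ran from 34 (without nid-sEV replicate 2) to 176, with 72 without nid-sEV replicate 3. It was 71 with a pseudocount of 10, 78 with the filter on mean RPM, 73 after thinning, 69 (48 higher, 21 lower) with the filtered quasi-likelihood test and 63 without its filter. DESeq2 called 65 higher and 50 lower. With the replicate block limma called 0 entries (187 had an unadjusted p under 0.05), and the 5 arms kept adjusted p-values from 0.31 to 0.98. Deviations of same-numbered libraries correlated at -0.054, 0.13 and -0.11, so the numbers were not taken as pairs.

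The median of the endothelial-associated list ran from -0.79 with DESeq2 to 0.10 with TMM factors, and was 0.090 without nid-sEV replicate 1 and 0.094 without nid-sEV replicate 2. Its members called in some setting, named after their values were seen, were miR-132-3p, miR-23b-3p, miR-146a-5p, miR-10a-5p, miR-10b-5p and miR-17-5p.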
